A study of Mus musculus with 16 samples.

Results

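The GABA-A receptor subunits described here are 7 genes, Gabra2, Gabra3, Gabra4, Gabra5, Gabrb1, Gabrb2 and Gabrd, taken with every probe set that the platform annotation maps to that symbol alone. They had 21 probe sets, out of 34945 probe sets with a single symbol for 18193 genes. RNA of the hippocampus of male mice aged 2 months, strain label C56/BL6, was hybridised to 16 Affymetrix arrays, 4 for each of 4 genotypes. The WT group carried no deletion by its label, the APP_KO group was APP-/-, the APLP2_KO group was APLP2-/-, and the N_dCKO group has the genotype label APP-/-; APLP2-/- and is named in the series title as a conditional double knockout in neurons. APP, the amyloid precursor protein, is a membrane protein of neurons and other cells, and APLP2 belongs to the same family. The Cre driver of the conditional knockout, and whether all 4 samples of a group were separate animals, are not given in the sources used here, so p-values measure only how far samples of a group spread, which may be a technical spread.

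GABA-A receptors are chloride channels opened by GABA, the main inhibitory transmitter of the adult brain, and each channel is a ring of subunits drawn from several families. The alpha subunits set much of the pharmacology and the place of the receptor: receptors with the alpha 2 subunit are found at synapses, while those with alpha 5, or with alpha 4 and delta together, lie largely outside synapses and carry tonic inhibition in hippocampal neurons. The beta subunits, here beta 1 and beta 2, form part of the GABA binding site and bind the machinery that moves receptors to and from the membrane.

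None of the 7 subunit genes passed the test in any comparison of the genotypes. The values that lay farthest from WT were those of Gabra2 in APLP2_KO, at 143% to 169% of the WT mean by its 3 probe sets above the filter, and of the dimmer probe set of Gabra4, at 147% in APP_KO and 144% in N_dCKO while the gene's brighter probe set was near WT. Gabrb2 was at 111% to 117% of WT in N_dCKO by its 4 probe sets, and in 3 of these 4 all N_dCKO arrays lay above all WT arrays, but none of them passed the adjusted test. With arrays centred on their medians, the Gabrb2 log2 fold changes in N_dCKO were 0.06 (1429685_at), 0.07 (1428203_at), 0.14 (1428204_at) and 0.12 (1428205_x_at). That centring moved the median of all genes by about -0.09. The remaining subunits differed from WT by less than 20% in every group mean of their brightest probe set.

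Promoters are shown for the 3 genes with those differences, and for Gabrb1 because it neighbours Gabra4. RefSeq windows (GRCm38.p6) of 250 bases before to 50 bases after a start site were found for 6 of the 7 genes, 10 windows in all. Letters are in capitals where a GC box (GGGCGG on either strand) or a TATA box (TATAAA on either strand) was matched. The windows are Gabra2 at chr5:71095800-71096099 on the minus strand, Gabra4 at chr5:71658259-71658558 on the minus strand, the first of 2 start sites of Gabrb1 at chr5:71657671-71657970 on the plus strand, and the first of 3 start sites of Gabrb2 at chr11:42420190-42420489 on the plus strand.
Gabra2: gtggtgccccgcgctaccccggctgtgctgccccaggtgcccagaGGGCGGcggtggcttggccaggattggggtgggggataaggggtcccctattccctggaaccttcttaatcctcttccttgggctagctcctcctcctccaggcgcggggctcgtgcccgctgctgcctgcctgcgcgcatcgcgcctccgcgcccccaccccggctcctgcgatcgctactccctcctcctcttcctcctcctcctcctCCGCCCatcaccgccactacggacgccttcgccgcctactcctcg
Gabra4: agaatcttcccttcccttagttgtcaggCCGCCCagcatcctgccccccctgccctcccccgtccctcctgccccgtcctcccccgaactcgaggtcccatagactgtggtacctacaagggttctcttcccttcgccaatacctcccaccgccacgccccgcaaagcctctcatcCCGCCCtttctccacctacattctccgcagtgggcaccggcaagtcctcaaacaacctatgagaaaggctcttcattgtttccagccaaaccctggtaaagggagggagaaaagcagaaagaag
Gabrb1: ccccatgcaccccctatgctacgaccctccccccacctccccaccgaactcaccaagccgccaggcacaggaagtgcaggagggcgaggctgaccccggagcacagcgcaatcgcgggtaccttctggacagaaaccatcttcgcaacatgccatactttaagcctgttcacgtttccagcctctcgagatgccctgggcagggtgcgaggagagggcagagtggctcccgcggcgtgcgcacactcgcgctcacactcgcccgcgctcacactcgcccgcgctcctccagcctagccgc
Gabrb2: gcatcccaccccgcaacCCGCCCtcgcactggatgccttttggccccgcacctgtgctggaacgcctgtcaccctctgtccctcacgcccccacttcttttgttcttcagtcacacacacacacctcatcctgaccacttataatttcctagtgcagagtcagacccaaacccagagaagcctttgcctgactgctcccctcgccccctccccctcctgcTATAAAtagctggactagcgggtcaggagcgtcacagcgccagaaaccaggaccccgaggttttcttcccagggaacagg

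GC boxes were matched in 3 of the 10 windows, those shown of Gabra2, Gabra4 and Gabrb2, and in 35.7% of all 32851 promoter windows. TATA boxes were matched in the first Gabrb2 window, at position -30 from the start site, and in both Gabra3 windows. The Gabra3 windows overlap and share a single site, at -123 from one start and -235 from the other. Of all windows, 13.6% held a match. The cyclic AMP response element TGACGTCA, held by 1.79% of all windows, and the E-box CACGTG, held by 7.15%, were matched in none of the 10. Gabra4 and Gabrb1 are transcribed from opposite strands of chromosome 5. The first Gabrb1 start lies 387 bases inside the transcribed side of the Gabra4 start, so that the 5' ends overlap, and the other lies 41.6 kb on the upstream side of Gabra4. Gabra2 starts 562 kb from Gabra4 on the same strand. These are matches of letters and positions only.

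The labels were first checked on the deleted genes. App signal was 18499 ± 1098 in WT (SD, n = 4) and fell to 13.6% of that mean in APP_KO and 11.8% in N_dCKO. Aplp2 was at 19.4% of WT in APLP2_KO and 16.7% in N_dCKO. Hippocampal markers were present: in WT the granule cell factor Prox1 had a mean signal of 606 and the pyramidal cell factor Neurod6 one of 5554. The 8 thalamus and habenula markers summed to 4035 to 4380 in WT, and every mutant group overlapped that range. The 5 striatum markers summed to 3121 to 4180 in WT and 2221 to 3365 in APLP2_KO. Their sums were 3312 to 3618 in APP_KO and 3353 to 3862 in N_dCKO. In APLP2_KO their median log2 fold change was -0.33 and 3 of 5 had an unadjusted limma p below 0.05 (7.44% of all genes). None was called there (0.129% of all genes), and 1 was called lower in N_dCKO (0.943% called). Choroid plexus markers summed to between 29702 and 40639 in the 12 arrays of the other groups. In N_dCKO arrays 1 to 4 they summed to 374, 654, 36178 and 1055, so that a single array held the sum in the usual range. That sum is weighted to Ttr, which read 34285 in N_dCKO array 3, and does not show the level of the dimmer markers. Microglia markers also differed, summing to 10962 to 11704 in N_dCKO and 13918 to 14638 in WT. They summed to 12397 to 13816 in APP_KO and 11842 to 12684 in APLP2_KO, also below WT. Of these 9 markers, 0 had a log2 fold change above 0 in any mutant against WT. For 4, 7 and 8 of them the unadjusted limma p was below 0.05 in APP_KO, APLP2_KO and N_dCKO (5.18%, 7.44% and 12% of all genes). In N_dCKO 5 of the 9 were called lower (0.943% of all genes called), and 0 in APP_KO or APLP2_KO (0.00857% and 0.129%). Of 8 astrocyte markers, 6, 8 and 7 had log2 fold changes above 0 in APP_KO, APLP2_KO and N_dCKO (48.3%, 46.7% and 48.7% of all genes). None was called (0.00857%, 0.129% and 0.943% of all genes). For 3, 2 and 4 the unadjusted limma p was below 0.05. Oligodendrocyte markers summed to 45894 to 58376 in N_dCKO, 47833 to 71883 in APP_KO, 62774 to 71155 in APLP2_KO and 62843 to 77859 in WT. Of these 7 markers, 0 had a log2 fold change above 0 in N_dCKO or in APP_KO against WT, with a median of -0.52 in both. In each of these comparisons 6 had an unadjusted limma p below 0.05 (12% and 5.18% of all genes). Of the 7, 1, Mal, was called in N_dCKO (-0.90 ± 0.20, limma adjusted p = 0.0309), against 0.943% of all genes. The Gapdh signal ratio of the 3' over the 5' probe set, which rises as RNA degrades, ran from 0.797 to 0.834 in N_dCKO and from 0.752 to 0.786 in WT, without overlap. In bulk tissue, fewer cells of a type and less RNA per cell cannot be told apart. The part of these differences in the subunit values was not tested. Some values below are also given with the Gapdh ratio as a covariate. Since that ratio did not overlap between N_dCKO and WT, RNA quality and genotype cannot be told apart by these values.

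The signals are MAS5 values on a linear scale, with every array scaled by the authors to the same trimmed mean. Fold changes below are differences of log2(signal + 9), and each is given with its SE from a limma fit across all 11664 genes tested or, probe set by probe set, across 22503. A gene was called at a Benjamini-Hochberg adjusted p below 0.05. Of the 21 probe sets of the subunits, 15 lay above the filter on dim signals (a mean log2 value of 6.60), with at least 1 for each gene, and mean signals of 309 or more. The other 6 had signals between 1.04 and 113 and were not tested for a call.

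**Figure D1:**
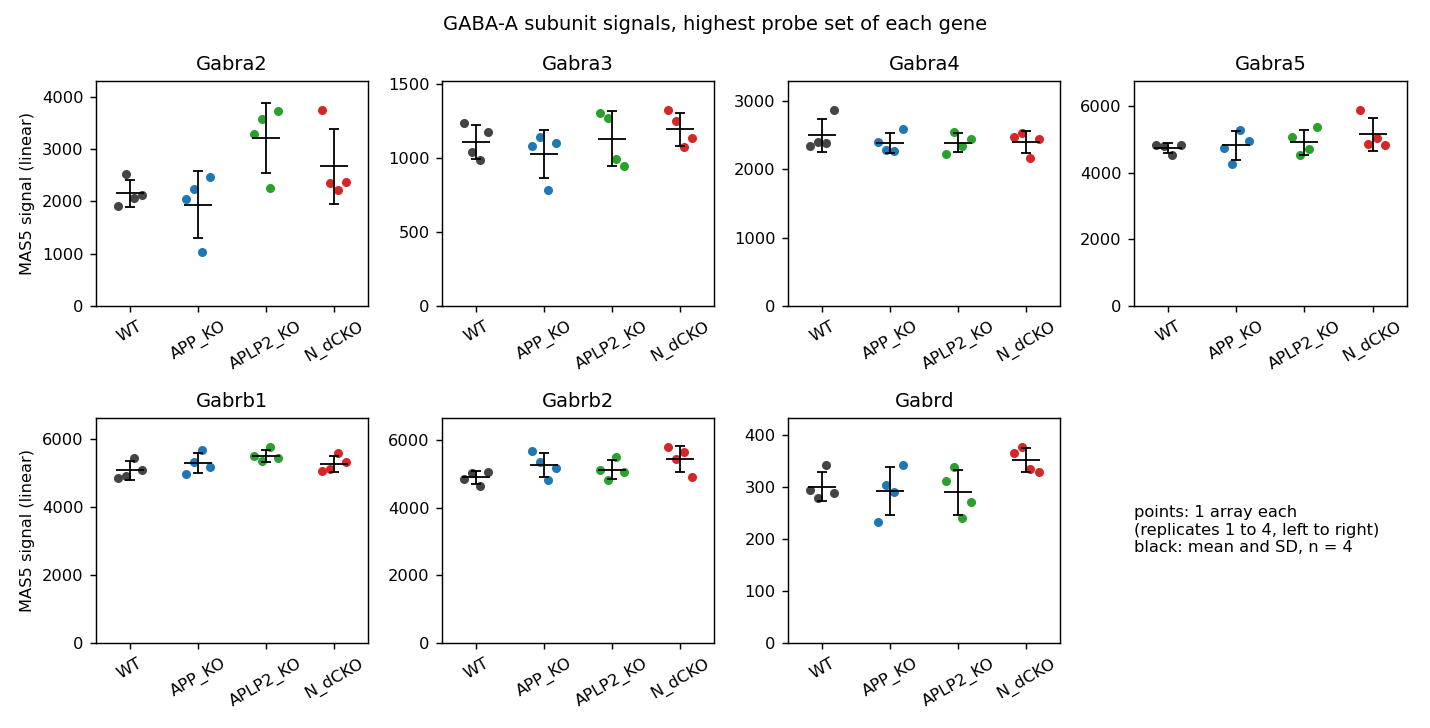
MAS5 signal (linear, vertical axis) of the brightest probe set of each subunit gene in each of the 16 arrays, by genotype on the horizontal axis, with the group mean and SD in black (n = 4). Gabra2 spreads widely, from 1025 in an APP_KO array to 3738 in an N_dCKO array, while the groups of every gene overlap with WT.

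Gabra2 encodes the alpha 2 subunit, which is enriched at inhibitory synapses, including those on the axon initial segment of pyramidal cells. Its brightest probe set, 1455444_at, read 1919, 2515, 2057 and 2113 in WT arrays 1 to 4 and 3279, 3573, 2253 and 3730 in APLP2_KO arrays 1 to 4. It read 2037, 2228, 1025 and 2465 in APP_KO and 3738, 2356, 2215 and 2376 in N_dCKO. Arrays stood apart in each mutant group: 3 of 4 APLP2_KO arrays were above every WT array, APP_KO array 3 was below every other array, and N_dCKO array 1 was above the rest of its group.

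The group means ran, from high to low, APLP2_KO (3209 ± 664, SD, n = 4), N_dCKO (2671 ± 715), WT (2151 ± 256) and APP_KO (1939 ± 634), and no neighbours in that order differed beyond their spread. The log2 fold change in APLP2_KO against WT was 0.56 ± 0.22, with a limma adjusted p of 0.54. It was -0.22 ± 0.22 in APP_KO and 0.28 ± 0.22 in N_dCKO, with adjusted p-values of 0.9997 and 0.653 by limma. The APP_KO value was 0.06 without APP_KO array 3, and the N_dCKO value was 0.11 without N_dCKO array 1 and -0.09 with the Gapdh ratio as a covariate. An exact permutation test between both sets of 4 arrays (two-sided; no p below 0.0286 is possible) gave p = 0.0571 for APLP2_KO against WT, or 0.429 adjusted over the 35 tests of the 7 genes. Gabra2 was also the subunit with the smallest p in the F test over the 4 groups, at 0.0111 unadjusted and 0.272 adjusted by limma.

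A pair of dimmer Gabra2 probe sets gave much the same picture. Probe set 1443865_at read 982, 1058, 1084 and 1014 in WT and 1610, 1616, 1057 and 1643 in APLP2_KO, again with array 3 of that group at the WT level. The third, 1421738_at, read 802, 988, 706 and 855 in WT and 1477, 1164, 1435 and 1591 in APLP2_KO. In this probe set APLP2_KO array 3 was high like the others, and all APLP2_KO arrays lay above all WT arrays.

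Its log2 fold change in APLP2_KO against WT was 0.75 ± 0.17, with an unadjusted p of 0.00035 and an adjusted p of 0.154 by limma over all probe sets. Over 22 alternative settings its limma adjusted p ran from 0.00888 (without APP_KO array 3, the array with the lowest Gabra2 reading) to 0.451 (without APLP2_KO array 1), and it was called in 1 of the 22. Across the 16 arrays, the 2 brighter probe sets correlated at Pearson's r = 0.97 (permutation p = 3e-05; Spearman's rho 0.77, permutation p = 0.00077). They correlated with the third at r = 0.83 and 0.84 (rho 0.74 and 0.79), and without the 2 arrays farthest from the median at r = 0.93 for the first pair and 0.70 and 0.65 for the others. The permutation p-values of these r, adjusted over the 13 pairs of probe sets of the subunits, were 0.00039, 0.000737 and 0.000747. With group means taken out, r was 0.95, 0.69 and 0.70, so the Gabra2 probe sets also varied together within groups.

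**Figure D2:**
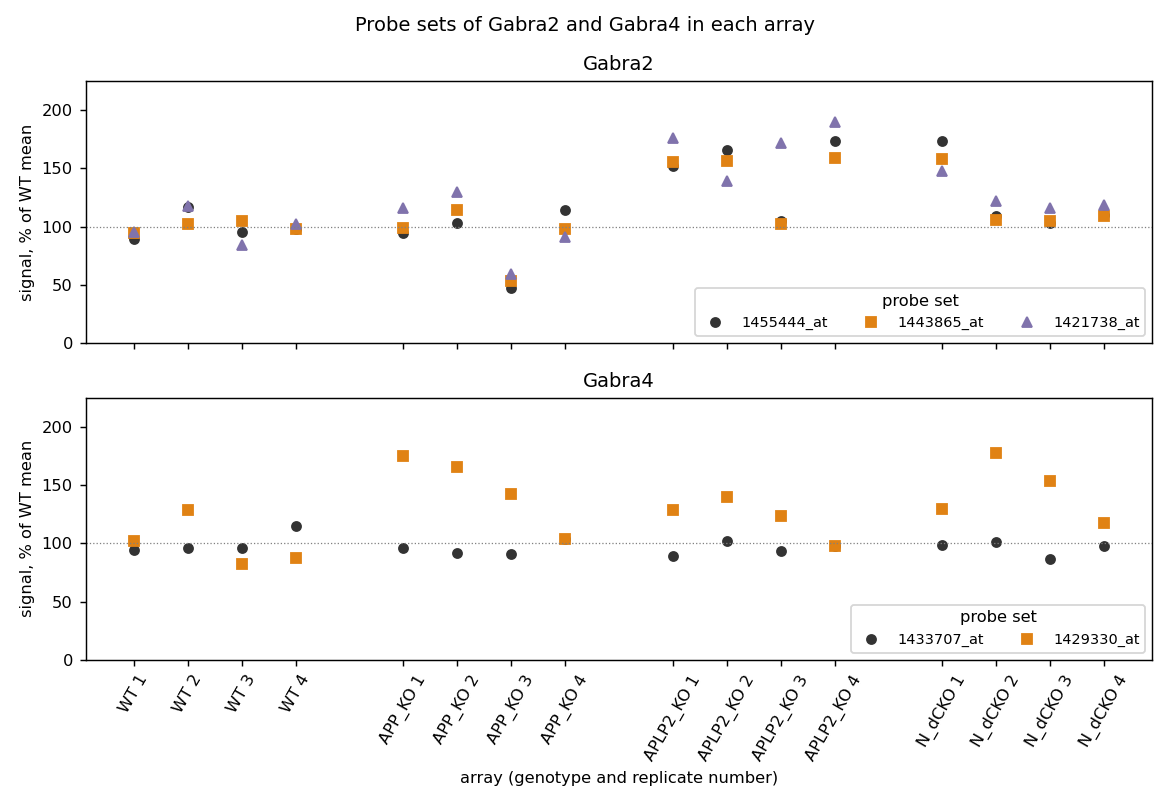
Signal of the 3 Gabra2 and the 2 Gabra4 probe sets above the filter in each array, as a percentage of that probe set's WT mean (vertical axis), with arrays ordered by genotype and replicate number (horizontal axis). The Gabra2 probe sets follow each other in most arrays, with the lowest readings in APP_KO array 3, while the Gabra4 probe set 1429330_at lies above 140% in arrays where 1433707_at stays near 100%.

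Gabra4 encodes the alpha 4 subunit, which pairs with delta in extrasynaptic receptors of dentate granule cells. Its brighter probe set, 1433707_at, read 2344, 2398, 2388 and 2857 in WT, and 2215 to 2583 in the single knockouts and 2157 to 2526 in N_dCKO. Only WT array 4 stood apart from this narrow range. The log2 fold change against WT was -0.06 ± 0.07 in each of the 3 mutant groups, with limma 95% intervals that reached no lower than -0.21 and no higher than 0.09.

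The other Gabra4 probe set, 1429330_at, read 605, 758, 485 and 518 in WT. It read 1035, 980, 841 and 615 in APP_KO, 758, 829, 731 and 576 in APLP2_KO, and 765, 1049, 907 and 696 in N_dCKO. Most mutant arrays were above most WT arrays, but WT array 2 lay within the range of every mutant group. The log2 fold changes were 0.54 ± 0.17 in APP_KO, 0.29 ± 0.17 in APLP2_KO and 0.53 ± 0.17 in N_dCKO, with limma adjusted p-values of 0.851, 0.757 and 0.184.

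The 2 Gabra4 probe sets therefore read differently from each other. Over the 16 arrays they correlated at r = -0.39 (permutation p = 0.134, adjusted 0.145; rho -0.23, permutation p = 0.399), and at -0.07 without the 2 arrays farthest from the median. The log2 ratio of the dimmer to the brighter probe set within an array was lowest in WT, at -2.08 ± 0.35 (SD, n = 4), followed by APLP2_KO at -1.72 ± 0.24, N_dCKO at -1.49 ± 0.28 and APP_KO at -1.47 ± 0.40. Against WT this ratio differed by 0.60 in APP_KO (exact permutation p = 0.0857), 0.36 in APLP2_KO (exact permutation p = 0.2) and 0.58 in N_dCKO (exact permutation p = 0.0857). Adjusted over these 3 exact tests the p-values were 0.129, 0.2 and 0.129, so the difference between the probe sets did not pass.

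Gabra5, whose alpha 5 subunit is abundant in hippocampal pyramidal cells, had 1 probe set. It read 4842, 4808, 4534 and 4830 in WT and 5870, 4866, 5030 and 4833 in N_dCKO. N_dCKO array 1 was high, and the lowest N_dCKO array fell within the WT range. The log2 fold change in N_dCKO was 0.11 ± 0.07 (limma adjusted p = 0.574), and it was 0.02 ± 0.07 in APP_KO and 0.04 ± 0.07 in APLP2_KO.

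Gabra3 encodes the alpha 3 subunit, which is prominent in monoaminergic and thalamic reticular neurons. Its probe set above the filter read 1233, 1038, 988 and 1172 in WT, 1077, 1141, 784 and 1100 in APP_KO, 1304, 1271, 994 and 949 in APLP2_KO, and 1321, 1250, 1074 and 1134 in N_dCKO. All 4 groups overlapped, and APP_KO array 3, the lowest for Gabra2, was also the lowest for Gabra3. The log2 fold changes were -0.12 ± 0.12, 0.02 ± 0.12 and 0.11 ± 0.12 in APP_KO, APLP2_KO and N_dCKO.

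Gabrb2 encodes beta 2, a partner of alpha 1 in many synaptic receptors, and had 4 probe sets above the filter. The brightest, 1429685_at, read 4853, 5036, 4656 and 5047 in WT and 5797, 5442, 5640 and 4919 in N_dCKO. N_dCKO array 4 lay within the WT range, and the other 3 were above it. Its log2 fold change was 0.15 ± 0.06, with a limma p of 0.0214 unadjusted and 0.304 adjusted, the smallest adjusted p of a subunit gene against WT. With the Gabrb2 probe sets averaged, the log2 fold change was 0.18 with a limma adjusted p of 0.0763. With arrays centred on their medians, 1429685_at gave 0.06 with a limma adjusted p of 0.779.

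In the other 3 Gabrb2 probe sets all N_dCKO arrays lay above all WT arrays, as in 3.11% of all probe sets. Probe set 1428203_at read 4289 to 4421 in WT and 4659 to 4955 in N_dCKO, a log2 fold change of 0.16 ± 0.04 with a limma adjusted p of 0.119. Probe set 1428204_at read 1816 to 1903 in WT and 2082 to 2277 in N_dCKO, a log2 fold change of 0.22 ± 0.06 with a limma adjusted p of 0.104. Probe set 1428205_x_at read 1366 to 1577 in WT and 1636 to 1771 in N_dCKO, a log2 fold change of 0.20 ± 0.07 with a limma adjusted p of 0.229.

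Gabrb2 was also above WT in the single knockouts, by less. Log2 fold changes of its 4 probe sets were between 0.06 and 0.12 in APP_KO and between 0.07 and 0.15 in APLP2_KO. The means of 1428204_at were in the order N_dCKO (2168 ± 81, SD, n = 4), APLP2_KO (2056 ± 48), APP_KO (2008 ± 188) and WT (1854 ± 36), and the single knockouts overlapped each other. These 4 probe sets are readings of 1 gene and are not independent of each other: their 6 pairwise correlations were r = 0.57 to 0.85 (rho 0.56 to 0.86; permutation p at most 0.0211 for r, or 0.0305 adjusted over the 13 pairs), 0.46 to 0.83 without the 2 arrays farthest from the median, and -0.06 to 0.71 with group means taken out. With the Gapdh ratio, which was higher in N_dCKO, as a covariate, the log2 fold change of 1428204_at in N_dCKO was 0.19 ± 0.08, with a limma adjusted p of 0.61.

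Gabrb1 encodes beta 1, which is strongly expressed in the hippocampus. Probe set 1419719_at read 4862, 4927, 5459 and 5083 in WT and 5503, 5349, 5772 and 5437 in APLP2_KO, so that WT array 3 alone reached into the APLP2_KO range. The log2 fold change in APLP2_KO was 0.12 ± 0.05, with a limma adjusted p of 0.63 (0.037 unadjusted), and it was 0.06 ± 0.05 in both other mutant groups. Probe set 1435095_at gave 0.11 ± 0.05 in APLP2_KO, and probe set 1443205_at gave 0.05 ± 0.10.

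Gabrd encodes the delta subunit of extrasynaptic receptors on granule cells and some interneurons. Its probe set above the filter read 294, 279, 341 and 289 in WT, 232, 304, 290 and 342 in APP_KO, 311, 338, 240 and 271 in APLP2_KO, and 366, 377, 335 and 329 in N_dCKO. The N_dCKO arrays were high and close together, but WT array 3 and single arrays of each single knockout reached their range. The log2 fold change was 0.22 ± 0.12 against WT (limma adjusted p = 0.512), 0.27 ± 0.12 against APP_KO (0.607) and 0.28 ± 0.12 against APLP2_KO (0.554). Granule cells express delta. Of 9 granule cell markers, 2, 2 and 1 had log2 fold changes above 0 against WT in APP_KO, APLP2_KO and N_dCKO. Of all genes, 48.3%, 46.7% and 48.7% lay above 0. The medians of the markers were -0.07, -0.05 and -0.14, and none was called (0.00857%, 0.129% and 0.943% of all genes). Unadjusted limma p-values were below 0.05 for 1, 1 and 3 of them (5.18%, 7.44% and 12% of all genes).

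**Figure D3:**
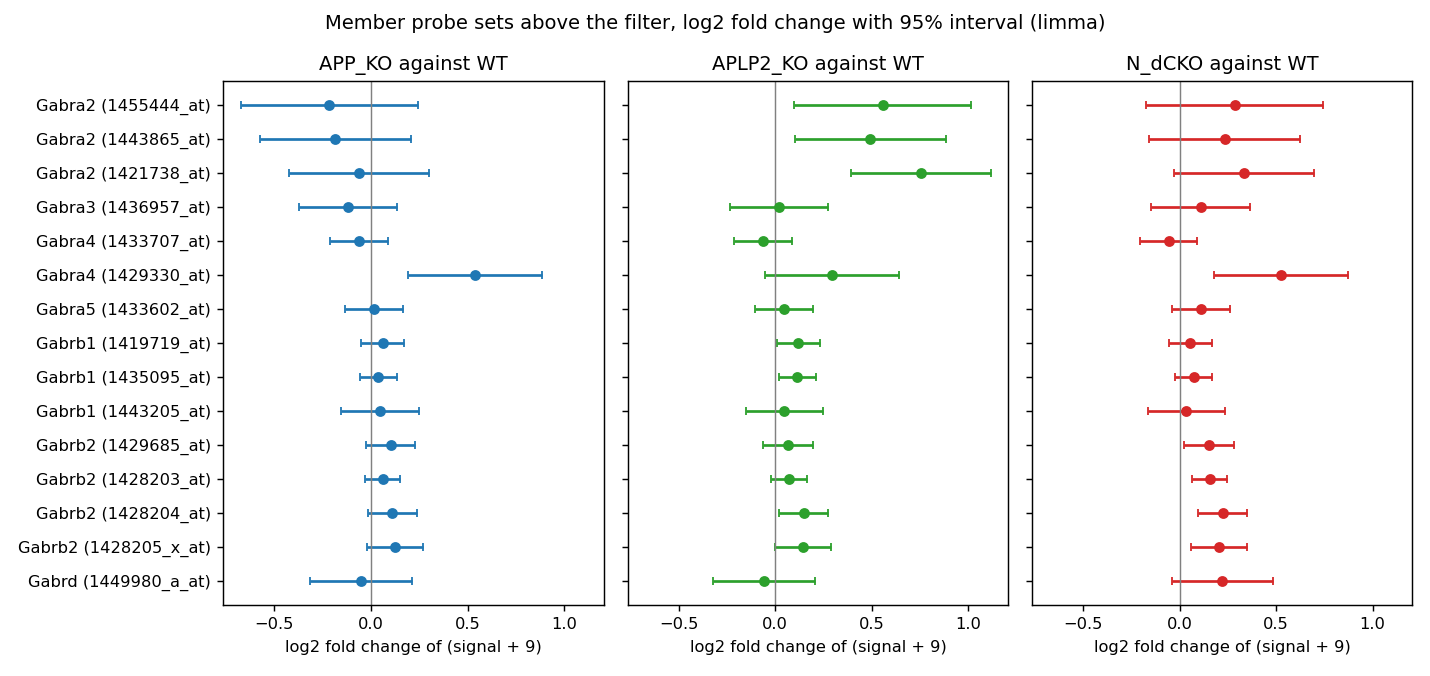
Log2 fold change of signal + 9 (horizontal axis) with limma 95% intervals for the 15 subunit probe sets above the filter, for each mutant genotype against WT. In APLP2_KO the 3 Gabra2 probe sets lie farthest to the right, at 0.49 to 0.75. In N_dCKO 14 of the 15 points lie above 0, against 52.0% of all probe sets. The 15 points read only 7 genes.

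Counts over the 7 genes can be read against all genes tested. In APP_KO against WT, 0 of the 7 were called by limma, as were 0.00857% of all genes, and 0 had an unadjusted p below 0.05, against 5.18% of all. In APLP2_KO, 0 were called (0.129% of all genes) and 2, Gabra2 and Gabrb1, had an unadjusted limma p below 0.05 (7.44% of all). In N_dCKO, 0 were called (0.943% of all) and 1, Gabrb2, had an unadjusted p below 0.05 (12% of all). With so few genes called anywhere, 0 of 7 called is near the background in each comparison.

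Between mutants, 0 subunit genes were called by limma in N_dCKO against APP_KO (0.352% of all genes), and Gabra2 and Gabrd had unadjusted p-values below 0.05 (7.71% of all). In N_dCKO against APLP2_KO 0 were called (0.0257% of all), and 1, Gabrd, had an unadjusted p below 0.05 (8.44% of all). The limma interaction, which asks whether the double loss differs from the sum of the single losses, called 0 of the subunits and 0% of all genes. By unadjusted p it held 0 of the subunits and 4.15% of all genes. Its largest value among the subunits was 0.33 ± 0.18 for Gabrd. The F test over the 4 groups called 0 subunits (0.566% of all genes), with Gabra2 at an unadjusted p below 0.05 (10.1% of all).

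Log2 fold changes against WT were above 0 for 3, 5 and 6 of the 7 genes in APP_KO, APLP2_KO and N_dCKO, against 48.3%, 46.7% and 48.7% of all genes. The medians of the 7 were -0.05, 0.04 and 0.11. All 3 comparisons share the WT arrays. Gabra2 had the widest limma 95% intervals against WT, equally wide in all 3 comparisons and running from 0.10 to 1.01 in APLP2_KO, and that of Gabrb1 in N_dCKO was among the narrowest, from -0.06 to 0.17.

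Probe set by probe set, limma called 0 of 15 in APP_KO (0.0133% of all probe sets), 0 in APLP2_KO (0.147%) and 0 in N_dCKO (0.667%). None was called in N_dCKO against APP_KO (0.262%) or against APLP2_KO (0.0267%), in the interaction (0%) or in the F test (0.435%). Unadjusted p-values below 0.05 against WT were found for 1, 6 and 5 of the 15 in APP_KO, APLP2_KO and N_dCKO, against 4.9%, 7.1% and 11.2% of all probe sets. The 6 in APLP2_KO were the 3 of Gabra2, 2 of Gabrb1 and 1 of Gabrb2, and the 5 in N_dCKO were the 4 of Gabrb2 and 1 of Gabra4. All 4 mutant arrays lay above all 4 WT arrays for 1, 2 and 3 of the 15, against 1.24%, 1.84% and 3.11% of all probe sets. Since several probe sets read the same gene, these counts rest on few genes.

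The 6 dim probe sets, 2 of Gabra2 and 1 each of Gabra3, Gabrb1, Gabrb2 and Gabrd, had log2 fold changes between -0.87 and 0.45 against WT and 0 unadjusted limma p-values below 0.05. The lowest was Gabrd probe set 1457763_at in N_dCKO, which read 8.11 to 18.1 there and 19.3 to 44.5 in WT, in the opposite direction from the brighter Gabrd probe set.

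The subunits did not form a common pattern across the arrays. The 21 pairwise correlations of their log2 signals over the 16 arrays, which share scaling and tissue makeup, ran from -0.49 to 0.62 with a median of 0.13. The highest was Gabra2 with Gabra3, and the lowest Gabra3 with Gabrb1. The neighbours Gabra4 and Gabrb1 correlated at -0.46, and the extrasynaptic partners Gabra4 and Gabrd at 0.13.

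The genes outside the family whose log2 signals were most like each subunit over the 16 arrays were different for each subunit. For Gabra2 they were Rims2, a scaffold of the presynaptic active zone (Pearson's r = 0.83), Tigd5 (0.80) and Hs3st1, a heparan sulfate sulfotransferase (0.80). For Gabra3 they were Tbr1, a transcription factor of cortical glutamatergic neurons (0.88), Car10 (0.88) and Brinp3 (0.87). For Gabra4 they were Mapkap1, a subunit of the mTORC2 kinase complex (0.86), Srp14 (0.83) and Mtmr14 (0.81).

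For Gabra5 they were Bcan, the matrix proteoglycan brevican (0.81), Tubb2b, a beta tubulin (0.78), and Adamts3 (0.78). For Gabrb1 they were Gnas, the stimulatory G protein alpha subunit (0.90), Uchl1, a neuronal deubiquitinase (0.87), and Usp46, another deubiquitinase (0.87). For Gabrb2 they were Gnaq, a G protein alpha subunit (0.84), Tenm2, a teneurin adhesion protein (0.83), and Cadm1, a synaptic adhesion protein (0.81). For Gabrd they were Kat2a, a histone acetyltransferase (0.84), Kifc3, a kinesin (0.84), and Mrps24, a mitochondrial ribosomal protein (0.82). These genes were picked for having the highest correlations, so high values follow in part from the selection. With group means taken out, the correlations were between 0.73 and 0.94, but over the same arrays that were used to pick the genes. These values are therefore not a separate test of shared expression. How high the best correlations would be by chance was not tested.

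Other genes of GABA signalling were mostly near WT. Of the other GABA-A subunit genes, 8 had a probe set for their symbol alone and 1, Gabrg1, was above the filter. Its log2 fold changes were 0.08, 0.11 and 0.06 (SE 0.09) in APP_KO, APLP2_KO and N_dCKO. Of 21 tested genes that anchor, assemble or move the receptors, limma called 0 in any mutant against WT (0.00857%, 0.129% and 0.943% of all genes). Unadjusted limma p-values were below 0.05 for 2, 2 and 3 in APP_KO, APLP2_KO and N_dCKO (5.18%, 7.44% and 12% of all genes). In N_dCKO 12 of 21 had a log2 fold change above 0, with a median of 0.02, against 48.7% of all genes. The smallest F test p-values of that list belonged to Insyn2a, of the inhibitory postsynaptic density, at 0.37 ± 0.14, 0.35 ± 0.14 and 0.38 ± 0.14 in the 3 mutants (limma adjusted p = 0.252 in N_dCKO), and to Gabarap, a receptor-trafficking protein, at -0.11 ± 0.05 in N_dCKO (adjusted p = 0.436).

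Of 8 genes of GABA synthesis, release and uptake, limma called 0 in each mutant (0.00857%, 0.129% and 0.943% of all genes). All 8 had log2 fold changes above 0 in N_dCKO, with a median of 0.15, against 48.7% of all genes. Unadjusted limma p-values were below 0.05 for 1, 2 and 2 in APP_KO, APLP2_KO and N_dCKO (5.18%, 7.44% and 12% of all genes). The summed signal of the 8 was 29311 to 31036 in N_dCKO and 26839 to 28965 in the 12 other arrays, without overlap. That sum is weighted to bright probe sets, chiefly that of Gad1 (mean signal 13430). The glutamine carrier Slc38a1 read 3251 to 3347 in WT and 3554 to 3792 in N_dCKO (log2 fold change 0.17 ± 0.05, limma adjusted p = 0.0982). The vesicular GABA transporter Slc32a1 was at 0.09 ± 0.08 in N_dCKO and -0.20 ± 0.08 in APLP2_KO (limma adjusted p = 0.716 and 0.535). The GABA-synthesising enzymes Gad1 and Gad2 were at 0.13 ± 0.05 and 0.16 ± 0.08 in N_dCKO. Interneuron markers, which include Gad1, Gad2 and Slc32a1, were also higher in N_dCKO as a sum. Their summed signal was 48010 to 50275 in N_dCKO and 44133 to 47314 elsewhere. In N_dCKO 13 of 14 had log2 fold changes above 0 (48.7% of all genes) with a median of 0.14. Of the 14, 1, Reln, was called (0.943% of all genes). The exception, Htr3a, a serotonin receptor of some interneurons, was at -0.62 ± 0.19 in N_dCKO (limma adjusted p = 0.129) and fell in APLP2_KO (-1.03 ± 0.19, limma adjusted p = 0.0252). The part of this in the list above was not tested. Neither list was refitted with the Gapdh covariate or with arrays centred on their medians. That centring moved the median of all genes in N_dCKO by about -0.09.

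Chloride transport sets the direction of the current through the receptors. Of 6 tested genes of this transport, limma called 1 in N_dCKO (0.943% of all genes) and 0 in either single knockout (0.00857% and 0.129%). Unadjusted limma p-values were below 0.05 for 3, 0 and 3 in APP_KO, APLP2_KO and N_dCKO (5.18%, 7.44% and 12% of all genes). Slc12a2, the sodium, potassium and chloride importer NKCC1, fell in N_dCKO. It read 3740, 4156, 4438 and 4763 in WT and 2720, 2829, 3330 and 3309 in N_dCKO. The groups did not overlap, and the log2 fold change was -0.49 ± 0.10 with a limma adjusted p of 0.0194. The call was lost when any of WT arrays 2, 3 and 4 or N_dCKO arrays 1 and 2 was left out (limma adjusted p = 0.0544 to 0.0852) and with the Gapdh ratio as a covariate (-0.36 ± 0.12, limma adjusted p = 0.362). Choroid plexus, which also expresses Slc12a2, had all 9 of its markers called lower in N_dCKO. The sum of those markers, weighted to Ttr, was 36178 in N_dCKO array 3, which read 3330 for Slc12a2. In the other 3 arrays the sum was 374 to 1055, and Slc12a2 read 2720 to 3309. The oligodendrocyte markers had a median log2 fold change of -0.52 in N_dCKO and in APP_KO, and Slc12a2 was at -0.25 ± 0.10 in APP_KO (limma adjusted p = 0.903). The part of both marker lists in the Slc12a2 values was not tested. The partner exporter Slc12a5 (KCC2) was at 0.09 ± 0.05 in N_dCKO (limma adjusted p = 0.497), and the kinase Stk39, which activates the importer, at -0.34 ± 0.12 (limma adjusted p = 0.198).

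**Figure D4:**
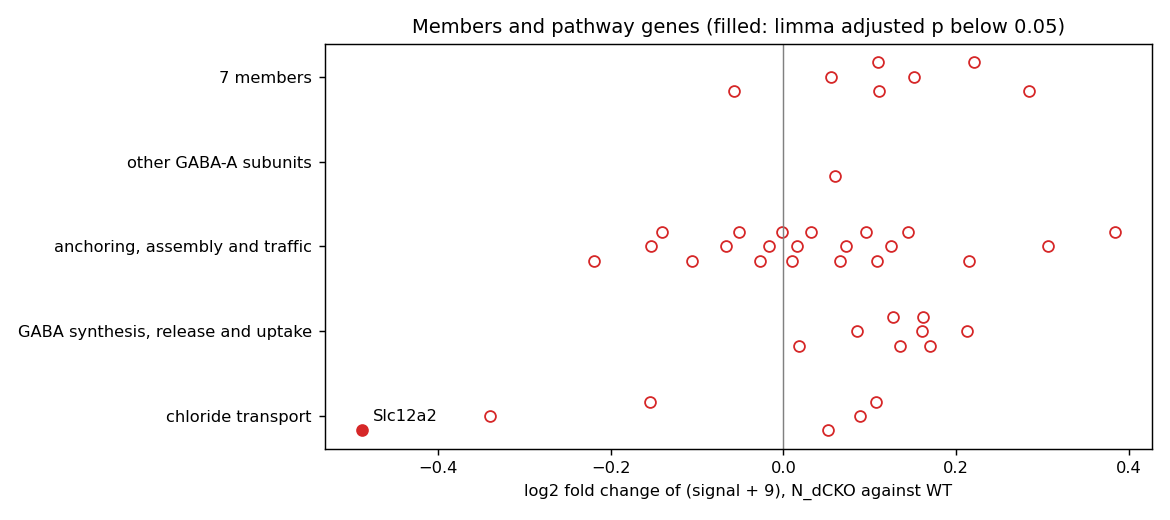
Log2 fold change of signal + 9 in N_dCKO against WT (horizontal axis) for each tested gene of 5 lists, 1 point per gene, spread vertically within a list for legibility. Only Slc12a2, at -0.49, is filled as called by limma; the 7 subunits lie between -0.06 and 0.28 and the GABA synthesis, release and uptake genes all above 0.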

How the data were processed

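RNA of 16 hippocampal samples was measured on Affymetrix mouse arrays. The deposited intensity values are linear MAS5 signals of the authors, as named in the submitters' processing notes (version not given in the sources used here). Each array of the deposited table had a 2% trimmed mean of 500.003. This scaling holds the array totals level and was kept; a shift common to most genes cannot be seen. Of 45101 probe sets, 64 were controls, 932 had several symbols and 9160 were not listed in the platform annotation; these stayed unnamed. Gene numbers were matched to a GRCm38.p6 gene list to update symbols (34741 found, 0 changed).

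Signals were transformed as log2(signal + 9), with the pseudocount set from the median signal of 91.7. Fold changes of dim genes are understated on this scale. The filter kept probe sets whose mean log2 value reached the median over all of them (6.60, or 88.2 in signal), with the highest probe set taken for each gene. The fit used limma 3.58.1 in R 4.3.3 and data.table (version 1.17.8): 1 mean per group over 16 arrays, a variance trend with intensity, 12 residual and 19.4 moderated degrees of freedom. P-values are two-sided, and the number of arrays limits the precision. Correlation p-values came from 100000 permutations. The script was tested on simulated data. Signals of different probe sets have no common scale, so levels were not compared between genes.

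The members and lists were chosen with earlier results of these data known. Genes named are the 7 members, the 3 genes most alike to each, and App and Aplp2. From each pathway list the called genes and the 2 with the smallest F test p are named. Ttr, Gad1, Gad2, Slc12a5, Reln, Htr3a, Mal, Prox1 and Neurod6 were named after their values were seen. No 2 arrays were identical.

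The alternatives were median centring or quantile normalization, array weights, a fit without the variance trend, a replicate block, the Gapdh ratio as a covariate, other filters and pseudocounts, averaged or separate probe sets, a fit of the compared groups only, and leaving out each array. Those for single probe sets and Slc12a2 were added after seeing the data.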

Additional observations from a re-analysis of the deposited data

Results flagged for a closer look

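In 60 sets of 4 arrays (15 probe sets in 4 groups), 6 held an array far from the other 3, by the gap to its nearest neighbour over the whole range of the set (Dixon's test at the 95% level); chance gives about 1 in 20. Gabra2 accounted for 3 of them. Its probe set 1455444_at was high in N_dCKO array 1, at 3738 against 2215 to 2376 (ratio 0.866), and its probe set 1443865_at was high in the same array, at 1636 against 1082 to 1133 (ratio 0.887), and low in APLP2_KO array 3, at 1057 against 1610 to 1643 (ratio 0.953). Gabra3 was low in APP_KO array 3, at 784 against 1077 to 1141 (ratio 0.847). Gabra4 probe set 1433707_at was high in WT array 4, at 2857 against 2344 to 2398 (ratio 0.885). Gabra5 was low in WT array 3, at 4534 against 4808 to 4842 (ratio 0.893). The causes were not tested.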

How the results depend on the processing

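The count of called subunit genes was 0 in all 7 tests under every alternative that was run, except that the fit of only the groups compared gave 5 tests, without the interaction and the F test. Of 585 single values under alternatives, 558 kept their direction and their side of the threshold and 27 changed sign, none of them called. Median centring, which moved the medians of all genes by about -0.09 (log2) against WT (-0.10, -0.09 and -0.09), gave -0.076 and -0.032 for Gabra5 and Gabrb1 in APP_KO, -0.059, -0.033 and -0.012 for Gabra3, Gabra5 and Gabrb2 in APLP2_KO, and -0.033 for Gabrb1 in N_dCKO. The mean over probe sets gave 0.24, 0.12 and 0.23 for Gabra4 in APP_KO, APLP2_KO and N_dCKO. The Gapdh covariate gave -0.017 for Gabra3 in APLP2_KO and -0.0898 and -0.0076 for Gabra2 and Gabra3 in N_dCKO. Leaving out 1 array gave -0.36 to 0.063 for Gabra2, -0.18 to 0.0034 for Gabra3, -0.10 to 0.0022 for Gabra4, -0.031 to 0.072 for Gabra5 and -0.13 to 0.051 for Gabrd in APP_KO. It gave -0.054 to 0.097 for Gabra3, -0.096 to 0.0025 for Gabra4 and -0.13 to 0.026 for Gabrd in APLP2_KO, and -0.086 to 0.00898 for Gabra4 in N_dCKO. The causes were not tested. With the replicate number as a block, 0 subunit genes were called and 1 subunit probe set was, Gabra4 1429330_at in N_dCKO against WT (limma adjusted p = 0.0196), and all-gene counts were 1, 30 and 198 in APP_KO, APLP2_KO and N_dCKO against 1, 15 and 110. The labels do not say what a replicate number stands for. Deviations from group means correlated at -0.02 to 0.30 over 24 same-numbered pairs of arrays (median 0.05, against -0.03 for other pairs), with 7 over 0.1, and 13 of 16 arrays correlated best with their own number, a hint from the data and not from the design. Leaving out arrays gave 0 to 1 called probe sets in APLP2_KO, the 1 being Gabra2 1421738_at without APP_KO array 3. Slc12a2 in N_dCKO was at -0.36 with the Gapdh covariate and between -0.55 and -0.43 when an array was left out. With 4 arrays a group, log2 fold changes had an SE of 0.098 in the median gene.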
